A study of Mus musculus with 4 samples.

Results

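The core replication-dependent histone genes of the mouse were compared between parthenogenetic haploid and parthenogenetic diploid embryonic stem cells (ESCs). These genes encode the histones H2A, H2B, H3 and H4. Members were all genes whose RefSeq symbol, or older name, is that of a clustered H2A, H2B, H3 or H4 gene, and the linker histones H1 were left out. The array held 45 probes for 41 such genes, of 39409 probes and 19748 named genes in all. A gene entered the comparison if a probe of it was detected, that is, called well above background, on both haploid or both diploid arrays. This held for 36 of the 41 genes, among 17962 features in all.

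The series holds 4 samples, 2 of haploid ESCs (replicates 1 and 2) and 2 of diploid ESCs (replicates 1 and 2), all female and all parthenogenetic, so both groups carry a maternal genome only. No treatment, time point or genetic change is given in the labels. RNA was amplified, labelled with Cy3 and read on 1-colour Agilent arrays, 1 per sample. Values are log2 signals relative to the 75th percentile of the same array, so that 0 is the signal at that percentile. Nothing in the labels ties a haploid sample to the diploid sample of the same number, and how many cell lines or clones the samples come from is not given in the labels.

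Core histones form the octamer around which DNA is wrapped in the nucleosome, with a pair each of H2A and H2B and a pair each of H3 and H4. A cell has to double its stock of them while it copies its DNA, and the replication-dependent genes are transcribed in S phase, when the factor NPAT gathers at the histone clusters. Their mRNAs end in a stem-loop bound by SLBP in place of a poly(A) tail, although some of the genes can also give tailed transcripts. In the mouse the genes sit in a large cluster on chromosome 13 (cluster 1), a smaller one on chromosome 3 (cluster 2), and small sites on chromosomes 11 and 6 (clusters 3 and 4). Mouse ESCs have a short G1 phase and spend much of their cycle in S phase.

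The promoters below show what sets the classes apart before any expression value. Sequences run 250 bases upstream to 50 bases downstream of the annotated start, are taken from RefSeq (build GRCm38.p6), and were found for 36 of the 41 genes. Capitals mark 4 motifs, each searched on both strands: the octamer ATTTGCAT, to which OCT1 binds in H2B promoters, the CCAAT box (CCAAT), the TATA box (TATAAA), and GGTCCG, a core sequence of the site to which HINFP binds in H4 promoters. One or 2 genes of each class are shown, among them the H2A and H4 genes with large differences and an H3 gene with a small one.
H2ac1 (chr13:23934187-23934486, plus strand): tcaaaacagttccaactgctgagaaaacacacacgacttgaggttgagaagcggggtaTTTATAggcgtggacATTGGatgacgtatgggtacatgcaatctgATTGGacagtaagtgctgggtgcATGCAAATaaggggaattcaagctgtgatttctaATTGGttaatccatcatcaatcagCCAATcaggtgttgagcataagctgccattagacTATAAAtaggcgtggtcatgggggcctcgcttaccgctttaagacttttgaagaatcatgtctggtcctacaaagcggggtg
H2ac4 (chr13:23750838-23751137, plus strand): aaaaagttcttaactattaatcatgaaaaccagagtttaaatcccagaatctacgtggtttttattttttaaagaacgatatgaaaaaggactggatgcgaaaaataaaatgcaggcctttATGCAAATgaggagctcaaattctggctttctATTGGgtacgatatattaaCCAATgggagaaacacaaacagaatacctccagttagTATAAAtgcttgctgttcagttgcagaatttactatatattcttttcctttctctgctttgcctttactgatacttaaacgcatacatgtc
H2bc18 (chr3:96269450-96269749, plus strand): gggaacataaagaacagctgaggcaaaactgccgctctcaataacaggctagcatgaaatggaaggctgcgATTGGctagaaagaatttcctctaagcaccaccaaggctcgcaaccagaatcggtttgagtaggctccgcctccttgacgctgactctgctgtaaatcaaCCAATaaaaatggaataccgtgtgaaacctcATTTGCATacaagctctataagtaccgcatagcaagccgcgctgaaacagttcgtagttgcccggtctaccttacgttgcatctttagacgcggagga
H3c3 (chr13:23745472-23745771, minus strand): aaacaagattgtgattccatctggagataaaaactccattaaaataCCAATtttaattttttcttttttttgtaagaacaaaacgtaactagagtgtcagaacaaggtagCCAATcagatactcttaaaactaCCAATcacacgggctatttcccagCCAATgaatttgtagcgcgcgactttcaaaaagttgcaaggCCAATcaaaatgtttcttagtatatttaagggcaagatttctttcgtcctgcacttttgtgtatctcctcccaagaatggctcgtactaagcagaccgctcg
H4c12 (chr13:21750504-21750803, minus strand): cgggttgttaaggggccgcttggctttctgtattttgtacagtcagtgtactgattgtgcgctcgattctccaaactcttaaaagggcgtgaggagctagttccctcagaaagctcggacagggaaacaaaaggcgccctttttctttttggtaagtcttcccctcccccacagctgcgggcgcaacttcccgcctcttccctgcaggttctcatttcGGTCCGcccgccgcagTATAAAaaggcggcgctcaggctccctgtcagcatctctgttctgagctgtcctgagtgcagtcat
H4c4 (chr13:23581318-23581617, plus strand): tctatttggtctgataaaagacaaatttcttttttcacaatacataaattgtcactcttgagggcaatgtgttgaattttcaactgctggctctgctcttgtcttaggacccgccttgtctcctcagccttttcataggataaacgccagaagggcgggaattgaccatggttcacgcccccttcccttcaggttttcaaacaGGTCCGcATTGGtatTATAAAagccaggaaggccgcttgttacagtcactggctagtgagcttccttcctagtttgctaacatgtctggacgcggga

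Over all core histone genes with a promoter sequence, on the array or not, GGTCCG was found in 11 of 12 H4 genes, 1 of 10 H3 genes, 1 of 16 H2B genes and 0 of 18 H2A genes, against 8.25% of all 32851 promoters. The octamer was found in 7 of 18 H2A genes and 7 of 16 H2B genes and in 0 of the H3 and H4 genes, against 1.74% of all promoters. A CCAAT box was found in all 18 H2A, 16 H2B and 10 H3 genes but in 3 of 12 H4 genes, against 37.4% of all promoters. The TATA box in this spelling was found in 11 H2A, 8 H2B, 4 H3 and 8 H4 genes, against 13.6% of all promoters. In the sequences above, H2ac1 and H2ac4 each hold 1 octamer, with 4 and 2 CCAAT boxes, H3c3 holds 5 CCAAT boxes and none of the other motifs, and H4c12 holds GGTCCG just upstream of its TATA box. Motif matches are a description of these windows only.

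Core histone genes mostly had higher mean signals in haploid cells, but none of them passed the test. Of the 36 genes compared, 35 had a positive log2 difference, haploid minus diploid, with a median of 0.68 or 1.60-fold, while 53.2% of all features were above 0 with a median of 0.02. Both haploid values lay above both diploid values for 27 of the 36 genes, against 26% of all features. No core histone gene passed limma's adjusted threshold of 0.05 over all features, which 0.111% of all features did in either direction and 0.0835% with haploid cells higher. At an unadjusted p under 0.05, 18 of the 36 were higher, against 6.79% of all features. The lone negative difference was that of H2bc6.

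The replicates differed among themselves nearly as much as the groups did. The class-wide median signal, taken relative to each gene's mean over the 4 arrays, was 0.11 in haploid replicate 1 and 0.66 in haploid replicate 2, against -0.15 in diploid replicate 1 and -0.60 in diploid replicate 2. Haploid replicate 2 minus haploid replicate 1 had a median of 0.54, and diploid replicate 1 minus diploid replicate 2 one of 0.46. Over all features both of these signed medians were 0.03, but there gaps of opposite sign cancel, so 0.03 is not the size of a usual gap. For 20 of the 36 genes the haploid minus diploid difference was larger than both of the gene's own replicate gaps, taken without sign. This held for 15.9% of all features. The exact order haploid 2, haploid 1, diploid 1, diploid 2 from high to low was shown by 21 of the 36 genes, against 10.7% of all features. That order was read from the medians of these same genes, so an excess over all features was built in.

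**Figure D1:**
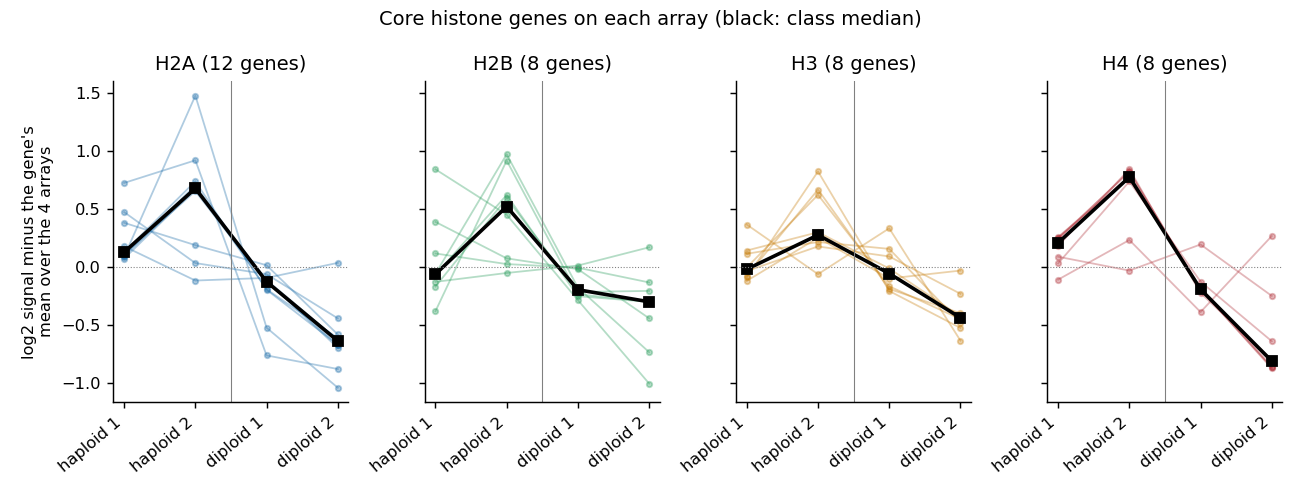
Log2 signal of each core histone gene on each array, relative to that gene's mean over the 4 arrays, by class (thin lines and points: genes; black squares: class median). Haploid replicate 2 is highest and diploid replicate 2 lowest for the median of each class, and the H4 lines nearly coincide for most genes.

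Part of the pattern goes with probe brightness. When all features were divided into 10 equal bins by mean signal, the median difference was -0.17 in the dimmest bin and 0.22 in the brightest, where 90.5% of features lay above 0, 52.6% had both haploid values above both diploid values, and 29% had the order given above. Over all features of the brightest bin, haploid replicate 2 minus haploid replicate 1 had a median of 0.01. Diploid replicate 1 minus diploid replicate 2 had one of 0.33 there. The brightest bin held 12 of the 36 core histone genes. All 12 lay above 0, 11 did not overlap between groups and 11 had that order, and their median difference was 0.81. The other 24 had a median of 0.52, with 23 above 0, 16 with both haploid values above both diploid values and 10 in that order. Over all features these last 2 shares were 26% and 10.7%. Of the 36 genes, 34 exceeded the median difference of the features in their own bin, by a median of 0.59. The exceptions were H2bc6 and H3c4.

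**Figure D2:**
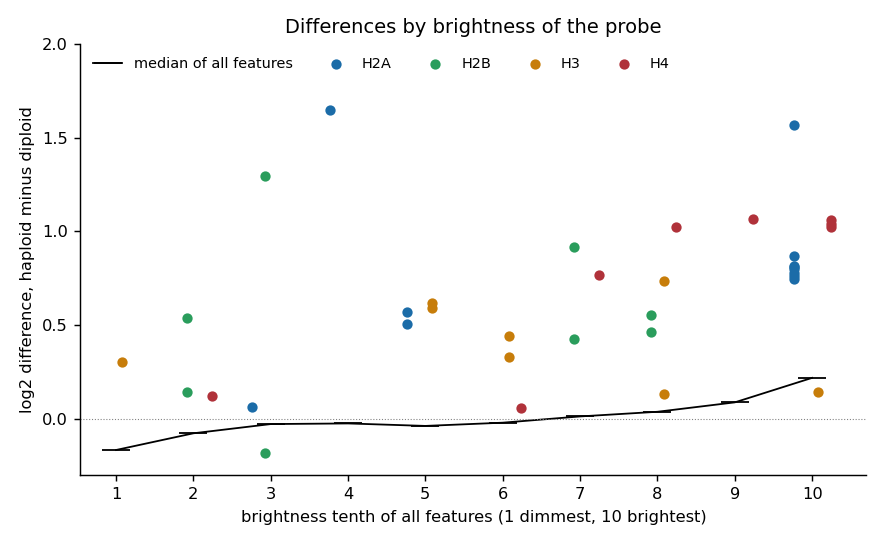
Log2 difference, haploid minus diploid, of each core histone gene (points, coloured by class) against the brightness bin of its probe among all 17962 features. The black line joins the median difference of all features in each bin, from -0.17 to 0.22, and all but 2 of the core histone genes lie above it.

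H4 had the largest class median. Its 8 measured genes were all above 0, and their median difference was 1.02 (2.03-fold). For 6 of them both haploid values lay above both diploid values, against 26% of all features and 52.6% of the brightest bin. Mouse H4 genes encode the same protein almost without exception, so their transcripts add to 1 pool of H4. H4f16, the lone gene of cluster 4, had log2 signals of 4.53 and 5.10 in the haploid samples, against 4.09 and 3.40 in the diploid samples, a difference of 1.07 ± 0.30 (SE, n = 2 per group, limma adjusted p = 0.262). H4c4 had 5.60 and 6.19 in haploid cells, against 5.17 and 4.50 in diploid cells (1.06 ± 0.30, limma adjusted p = 0.263). Both genes were higher in each haploid sample than in either diploid sample.

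H4c12, whose promoter is shown above, had 6.78 and 7.30 in haploid cells, against 6.34 and 5.66 in diploid cells (1.04 ± 0.29, limma adjusted p = 0.263). Its other probe differed by 1.07. H4c11 differed by 1.03 ± 0.30 and H4c14 of cluster 2 by 1.02 ± 0.28 (limma adjusted p = 0.277 and 0.255). These 5 genes from clusters 1, 2 and 4, singled out after their values were seen, each lay within 0.15 of the class median on all 4 arrays. As 5 of the 8 measured H4 genes, they largely set that median. H4c3 differed by less, at 0.77.

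H4c8 and H4c9 were the exceptions in this class. H4c8 had -3.64 and -3.30 in haploid cells, against -3.92 and -3.26 in diploid cells, and H4c9 had 0.43 and 0.31, against 0.54 and 0.096, so that both overlapped between groups. They differed by 0.12 ± 0.27 and 0.06 ± 0.21. For H4c9 the probes disagreed in size, the dimmer one differing by 0.68, and for H4c14 in sign, the dimmer one differing by -0.012. H4 coding sequences are near-identical between genes, and the files do not give the probe sequences, so the share of each probe's signal that comes from its own gene was not tested.

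H2A came next, with all 12 measured genes above 0 and a median of 0.79 or 1.73-fold. For 11 of them both haploid values lay above both diploid values, against 26% of all features and 52.6% of the brightest bin. H2ac1 encodes TH2A, a form known from testis and oocyte and not from most dividing cells. It had log2 signals of -1.40 and -1.20 in haploid cells, against -2.89 and -3.01 in diploid cells. Its difference of 1.65 ± 0.18, or 3.13-fold, was the largest among the 36 genes, with gaps between replicates far below it, and it just missed the threshold (limma adjusted p = 0.0532). With every probe as its own feature it passed (limma adjusted p = 0.049, where 0.161% of probes did). Its difference was the same there, so its call depends on the set of features tested along with it. With normexp background correction fitted on all spots, a fit that failed on diploid replicate 2, its difference was 0.29 (limma adjusted p = 0.841). With normexp fitted without spots of high local background it was 1.11 (limma adjusted p = 0.0139), where 122 of 17962 features passed.

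H2ac4 had 4.82 and 6.21 in haploid cells, against 4.21 and 3.69 in diploid cells. Its difference of 1.57 ± 0.45 (limma adjusted p = 0.272) rested in good part on haploid replicate 2, without which it was 0.87. A block of 7 further H2A genes, singled out after their values were seen, had a common profile: H2ac10, H2ac11, H2ac12, H2ac15, H2ac19, H2ac20 and H2ac22 lay within 0.15 of the class median on all 4 arrays. As 7 of the 12 measured H2A genes, they largely set that median. Their differences ran from 0.74 (H2ac12) to 0.87 (H2ac22). H2ac22 had 7.56 and 8.17 in haploid cells, against 7.23 and 6.76 in diploid cells, and H2ac20 of cluster 2 had 7.71 and 8.31, against 7.41 and 6.99. The block spans clusters 1 and 2, and its genes encode near-identical proteins, so the probes may share transcripts, which was not tested.

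The remaining H2A genes did not follow haploid replicate 2. H2ac18 of cluster 2 had -0.84 and -1.03 in haploid cells, against -1.20 and -1.80 in diploid cells, a difference of 0.57 ± 0.24. H2aw of cluster 3 had -0.26 and -0.70, against -0.80 and -1.18 (0.51 ± 0.23). H2ac8 had -2.38 and -2.67, against -2.65 and -2.52, and differed by 0.06 ± 0.19. The first pair was higher in both haploid samples, and H2ac8 overlapped between groups.

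**Figure D3:**
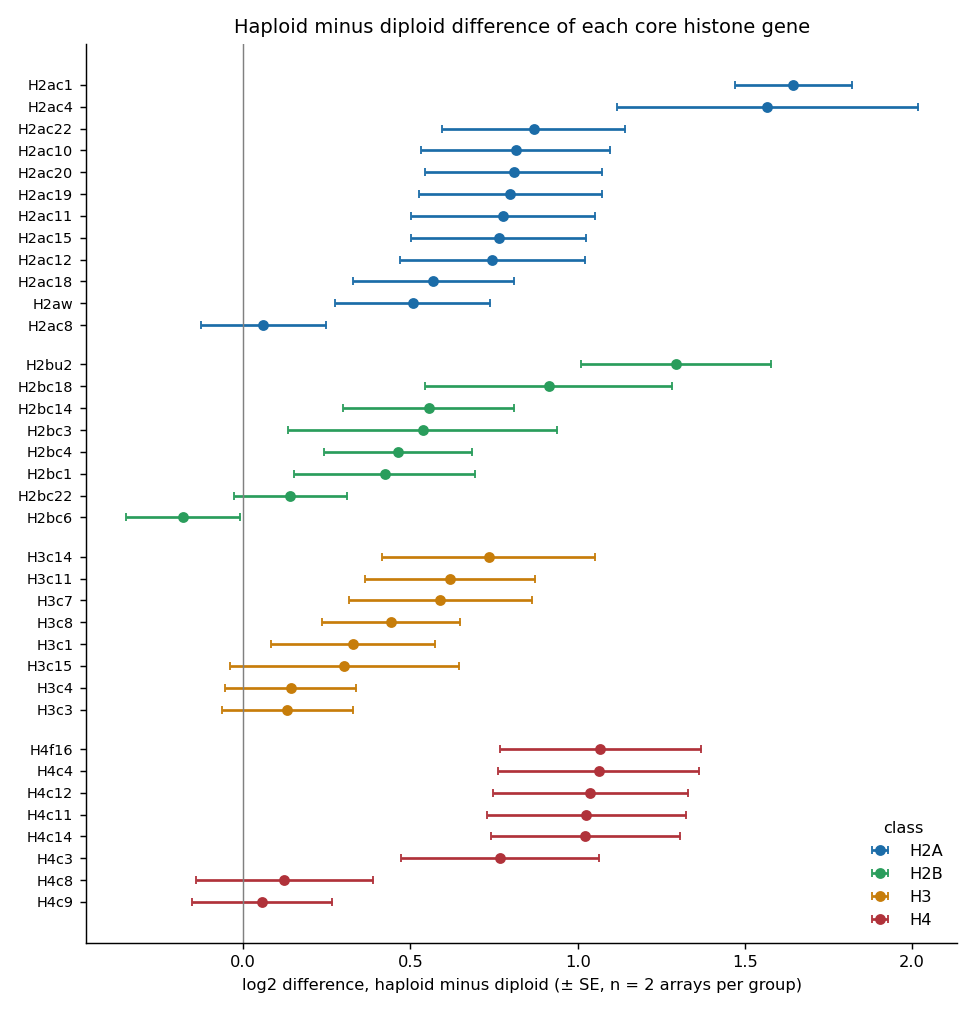
Log2 difference, haploid minus diploid, of each of the 36 core histone genes with its standard error from limma (n = 2 arrays per group), by class and in order of size. The differences run from -0.18 (H2bc6) to 1.65 (H2ac1), and 5 of the 8 H4 genes lie between 1.02 and 1.07.

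H2B was the class with a gene below 0. Of its 8 measured genes 7 were above 0, and the median was 0.50 (1.41-fold). In 6 of them both haploid values lay above both diploid values, against 26% of all features. H2bu2, an H2B gene of cluster 3, had -1.40 and -1.80 in haploid cells, against -2.53 and -3.25 in diploid cells (1.29 ± 0.28, limma adjusted p = 0.185). With normexp on all spots, the fit that failed on diploid replicate 2, its difference was 0.0026. With normexp fitted without spots of high local background it was 0.89. H2bc18 of cluster 2, with the octamer shown above, had 1.38 and 2.41, against 1.26 and 0.70 (0.91 ± 0.37, limma adjusted p = 0.42). For H2bu2 haploid replicate 1 was the higher haploid sample, whereas H2bc18 followed the common order, and without haploid replicate 2 its difference was 0.40.

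H2bc14 differed by 0.55 ± 0.25, or by 0.21 without haploid replicate 2, H2bc3 by 0.54 ± 0.40 and H2bc4 by 0.46 ± 0.22. H2bc3 was high in haploid replicate 2 alone, at -2.49, against -3.79 in haploid replicate 1 and -3.65 and -3.71 in the diploid samples. H2bc1, which encodes TH2B, the partner of TH2A in testis and oocyte, had 1.06 and 1.82 in haploid cells, against 1.01 and 1.02 in diploid cells. Its difference of 0.42 ± 0.27 also rested on haploid replicate 2, without which it was 0.04. H2bc22 differed by 0.14 ± 0.17. H2bc6 had -3.04 and -2.97 in haploid cells, against -2.90 and -2.75 in diploid cells, and was lower in both haploid samples by a mean of 0.18 (-0.18 ± 0.17, limma adjusted p = 0.689).

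Many H2A and H2B genes share 1 promoter region and are read in opposite directions from it. In the RefSeq windows 10 such pairs overlapped, 1 of them with a partner whose symbol there is H4bc24 and whose older name is that of an H2B gene, and in 2 of them both genes were measured. H2ac1 and H2bc1 share 220 of the 300 bases of their windows, including the octamer printed in the H2ac1 sequence, and their differences were 1.65 and 0.42. H2ac22 and H2bc22 share 261 bases, and their differences were 0.87 and 0.14. The H2A gene of either pair thus had the larger value, and the difference between partners was not tested. H2ac22 belongs to the H2A block whose probes may share transcripts, so its value may not be its own. H2bc22 was dim, at -3.30 and -3.40 in haploid cells, against -3.43 and -3.55 in diploid cells.

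H3 had the smallest class median, 0.38 or 1.31-fold. All 8 measured genes lay above 0, but 4 of them overlapped between groups. The other 4 had both haploid values above both diploid values, against 26% of all features. The difference exceeded both replicate gaps for 1 of the 8 genes, against 15.9% of all features. H3c14 of cluster 2 had 1.94 and 2.86 in haploid cells, against 1.82 and 1.51 in diploid cells (0.73 ± 0.32, limma adjusted p = 0.444). H3c11 differed by 0.62 ± 0.25, H3c7 by 0.59 ± 0.27 and H3c8 by 0.44 ± 0.21, each without overlap. Without haploid replicate 2 the differences were 0.28 for H3c14, 0.30 for H3c11 and 0.22 for H3c7, and without diploid replicate 2 that of H3c8 was 0.23. H3c3, whose promoter is shown above, had 1.56 and 1.94 in haploid cells, against 1.58 and 1.65 in diploid cells, and H3c4 had 5.98 and 6.19, against 6.11 and 5.79. These last 2 overlapped between groups and differed by 0.13 ± 0.20 and 0.14 ± 0.20.

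H3 genes encode either the H3.1 or the H3.2 protein, which differ in 1 residue. The 3 measured genes for H3.1 (H3c1, H3c8 and H3c11) differed by 0.33 to 0.62, with a median of 0.44. The 5 for H3.2 (H3c3, H3c4, H3c7, H3c14 and H3c15) differed by 0.13 to 0.73, with a median of 0.30, so that their range took in that of the H3.1 genes.

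By cluster, the 26 measured genes of cluster 1 had a median difference of 0.57, with 25 above 0. For 18 of them both haploid values lay above both diploid values, against 26% of all features. The 7 of cluster 2 had a median of 0.80, with 7 above 0 and 6 with both haploid values above both diploid values. The 2 of cluster 3, H2bu2 and H2aw, both lay above 0, as did the 1 of cluster 4. In clusters 1 and 2 the medians were 0.79 and 0.80 for H2A (8 and 3 genes), 0.44 and 0.91 for H2B (6 and 1 genes), 0.38 and 0.52 for H3 (6 and 2 genes) and 0.90 and 1.02 for H4 (6 and 1 genes). H4 was highest and H3 lowest in either cluster, while the 1 H2B gene of cluster 2 lay above its H2A genes. Within cluster 1, which has a long gap without measured core histone genes, the 10 genes of the part with H2bc14 had a median of 0.75 and the 16 of the part with H2ac1 had one of 0.45. The part with H2bc14 held 1 H3 gene, and the part with H2ac1 held 5.

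The order of the class medians, H4 above H2A, and both above H2B and H3, held in all 17 other ways of processing tried, leaving out each array among them. The order of H2B and H3 did not: H3 was above H2B with cyclic loess (0.45 and 0.45), without haploid replicate 2 (0.28 and 0.20) and without diploid replicate 1 (0.67 and 0.57). Each class median stayed above 0 in these 17. Not all of the 17 could move a median: limma's trended, robust prior and a block for replicate number act on the test alone. The filter for probes well above background on all arrays and the common floor left the class medians unchanged. Normexp on all spots failed on diploid replicate 2. With 2 arrays per group the class medians carry no test.

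**Figure D4:**
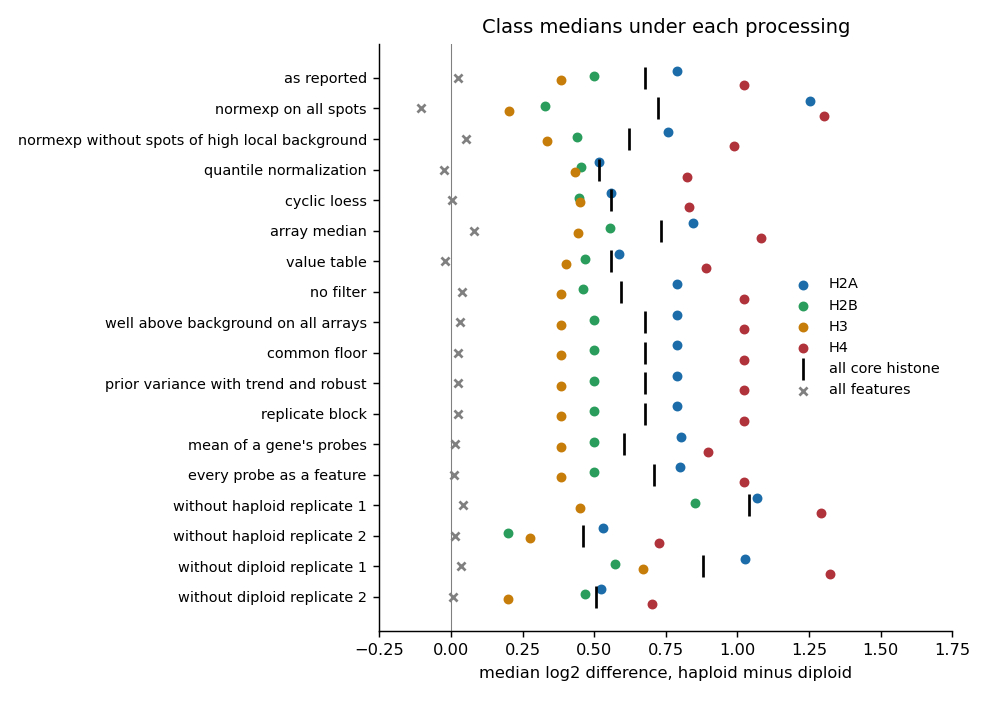
Median log2 difference, haploid minus diploid, of each class (coloured points), of all core histone genes (black bars) and of all features (grey crosses) as reported and under 17 other ways of processing. H4 lies to the right and H3 or H2B to the left in each row, and each class median stays above 0.

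The other 5 genes were each detected on at most 1 array of a group. H2ac21 was well above background on haploid replicate 2 only, H2ac6 on 1 diploid array only, and H2bc21 on replicate 2 of both groups, while H2bc8 and H2bc23 were above it on 0 arrays. H2bc21, a gene of cluster 2 known to give tailed transcripts in human cells, stood out in diploid replicate 2, at -1.88, against -5.74 and -4.50 in the haploid samples and -4.99 in diploid replicate 1.

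Of the related gene lists, linker histones, which bind the DNA between nucleosomes and are mostly replication-dependent too, had the largest median, 1.13. All 5 measured genes were above 0, and 4 had both haploid values above both diploid values, against 26% of all features. H1f5 differed by 1.17 ± 0.31 and H1f4 by 1.14 ± 0.31 (limma adjusted p = 0.236 and 0.242). Replacement histone variants, whose mRNAs mostly carry poly(A) tails, had 7 of 9 genes above 0 and a median of 0.21. In that list H2aj, an H2A gene outside the clusters, had 7.87 and 8.34 in haploid cells, against 7.59 and 7.08 in diploid cells (0.77 ± 0.26, limma adjusted p = 0.33), which lies within the range of the H2A block. Cenpa, the centromeric H3, differed by -0.38 ± 0.17, and the genes for H3.3, H3f3a and H3f3b, by 0.21 and 0.14.

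Factors of histone gene transcription and 3' end processing had 7 of 18 measured genes above 0 and a median of -0.10, with no call. Casp8ap2, a partner of NPAT needed for histone expression, differed by -0.59 ± 0.20 and Srrt, which couples the cap to 3' end processing, by -0.52 ± 0.22 (limma adjusted p = 0.343 and 0.435). Slbp itself had 0.79 and 1.17 in haploid cells, against 1.05 and 1.48 in diploid cells (-0.29 ± 0.23). Histone chaperones and carriers had a median of 0.06 (9 measured). Genes of DNA replication in S phase, such as Rfc4 (0.40 ± 0.20), had 17 of 24 above 0 and a median of 0.09. Relative to each gene's mean, their median was also highest in haploid replicate 2 (0.05) and lowest in diploid replicate 2 (-0.09). The array order counted for the core histone genes was shown by 7 of these 24, against 10.7% of all features. In none of these lists did a gene pass the test.

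Other RNAs without a poly(A) tail were, by their median, also highest in haploid replicate 2 and lowest in diploid replicate 2. All 6 that were measured lay above 0, with a median of 0.58. For 3 of the 6 both haploid values lay above both diploid values, against 26% of all features. Their median, relative to each gene's mean, was 0.09 and 0.51 in haploid cells, against 0.04 and -0.54 in diploid cells. Snord123 and Snora74a, which are small nucleolar RNAs, differed by 0.80 ± 0.20 and 0.77 ± 0.25 (limma adjusted p = 0.221 and 0.33). Rmrp, the RNA of RNase MRP, had 2.40 and 3.06 in haploid cells, against 2.43 and 1.69 in diploid cells, and Rnu12, a minor spliceosomal RNA, differed by 0.03 ± 0.20. The labels name the amplification kit but not its primer. How far the histone signals follow untailed transcripts, and the part that capture of such RNAs has in the differences, was not tested.

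**Figure D5:**
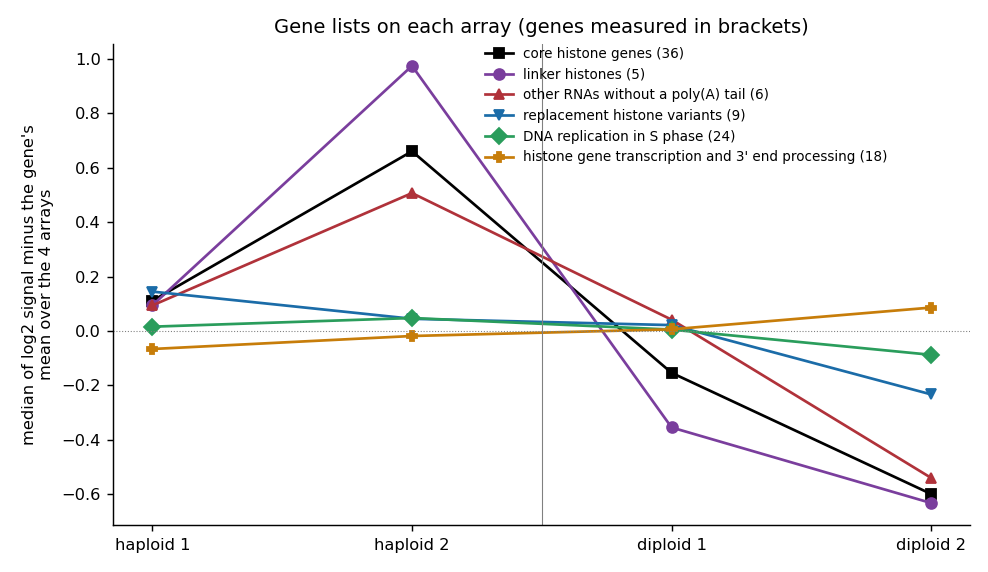
Median log2 signal of 6 gene lists on each array, relative to each gene's mean over the 4 arrays. Core histone genes, linker histones and the other RNAs without a poly(A) tail are highest in haploid replicate 2 and lowest in diploid replicate 2. Genes of S phase have the same highest and lowest arrays but stay within 0.09 of 0.

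All 14 listed ESC markers were measured, with a median difference of 0.05. Their summed signal was 289 times the array's 75th percentile in both haploid samples, against 277 and 252 times in the diploid samples. Nanog was dim, at -3.09 and -2.95 in haploid cells, against -2.72 and -2.58 in diploid cells. Being measured does not by itself mark a cell type, as 18 of 20 listed fibroblast and 10 of 14 listed trophectoderm markers were measured too. Fibroblast markers, listed because ESCs can be grown on feeder cells, had 14 of 18 measured genes above 0 and a median of 0.52, and their summed signal was 12.9 to 16.7 times the array's 75th percentile in haploid cells, against 7.32 to 9.89 times in diploid cells. Trophectoderm markers had 8 of 10 measured genes above 0 and a median of 0.82, with sums of 25.9 to 27.4 and 19.3 to 19.4. By its median relative to each gene's mean, the trophectoderm list had 0.24 and 0.44 in haploid cells, against -0.36 and -0.38 in diploid cells. Diploid replicate 1 exceeded diploid replicate 2 in 5 of its 10 measured genes, with a median gap of -0.009. The array order counted for the core histone genes was shown by 3 of the 10, against 10.7% of all features. The fibroblast list had 0.37 and 0.078 in haploid cells, against -0.13 and -0.46 in diploid cells, and was thus highest in haploid replicate 1. Their part in the histone differences was not tested, and in these bulk samples more cells in S phase and more histone mRNA per cell cannot be told apart.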

How the data were processed

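Per the labels' protocols, 0.2 ug of total RNA per sample was amplified, labelled with Cy3 and hybridised to 1 array. Per the file headers, the deposited spot intensity is the processed signal of Agilent Feature Extraction 11.0.1.1, background-subtracted but not scaled between arrays, on a design named for mm9. The authors also deposited a table of linear intensity values, with no normalization stated in the labels; it served as an alternative.

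Control and outlier spots were left out, repeated spots averaged, and each array's 75th percentile (526, 553, 617 and 907 intensity units for haploid 1 and 2 and diploid 1 and 2) subtracted on the log2 scale. Of the probes, 53.6% to 65.0% were well above background and 0 spots were saturated. The number of arrays limits the precision. Accessions were matched to RefSeq genes (GRCm38.p6), naming 26043 of 39409 probes. Probes not detected above background on both arrays of 1 group were dropped, and the brightest probe stood for its gene, which left 17962 features.

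Groups were compared over all features with limma 3.58.1 in R 4.3.3 (lmFit and eBayes, two-sided, Benjamini-Hochberg threshold 0.05), checked on simulated data. Each class is described by counts and medians. The members, lists and rule for named genes (per class the 4 largest and 2 smallest differences, the testis forms, members whose probes differ in sign, and the 2 members of each other list with the smallest p) were chosen with earlier results of these data known; genes named beyond it were chosen after their values were seen. One gene that the rule names is not reported here. Samples of a group are separate experiments per the series' design text, and the p-values reflect only how far these samples spread, which may be technical. The scanner files hold no mean signal, so normexp used the median signal. Python 3.11.15, pandas 2.3.3, numpy 2.4.6 and matplotlib 3.10.9 were used.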

Additional observations from a re-analysis of the deposited data

How the results depend on the processing

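No core histone gene passed limma's test over all features as reported, and 18 had an unadjusted p under 0.05. H2ac1 was the 1 call with normexp fitted without spots of high local background (added after seeing the data, as was normexp on all spots), with the array median as scale, with only probes well above background on all arrays, and with every probe as a feature. With limma's trended, robust prior there were 3 calls (H2ac1, H2bu2 and H4c14), and with 1 array left out 0 to 2, H2ac1 and H2ac4 being called without haploid replicate 1 and H2ac1 without haploid replicate 2. The count of all features called, 20 as reported, was 0 with cyclic loess, with normexp on all spots, without a filter and with a common floor. It was 122 with normexp fitted without spots of high local background, 5 with quantile normalization, 83 with the array median, 4 with the value table, 82 with probes above background on all arrays, 425 with trend and robust fitting, 35 with every probe as a feature, and 0 to 291 with 1 array left out. With the replicate block there were 2 calls and 0 of them core histone genes; same-numbered arrays deviated together with a correlation of 0.05 across features, so the numbers were not taken as pairs.

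Core histone genes above 0 numbered 29 of 36 with normexp on all spots, a fit that failed on diploid replicate 2, and 32 to 33 with 1 array left out. With 1 array left out the median ran from 0.46 to 1.04 over all core histone genes, from 0.52 to 1.07 for H2A, from 0.70 to 1.32 for H4, from 0.20 to 0.85 for H2B and from 0.20 to 0.67 for H3. The H2A median was 1.25 with normexp on all spots. With normexp on all spots the difference of H2ac1 was 0.29 (limma adjusted p = 0.841, against 0.000227 to 0.873 over its other alternatives), that of H2bu2 0.0026, of H3c11 0.0079, of H3c7 0.11 and of H3c8 0.19. Signs turned for genes with differences of up to 0.54: with normexp on all spots H2ac8 was -0.60, H2aw -0.014, H2bc22 -0.88, H2bc3 -0.58 and H4c8 -0.72, and H3c4 was -0.054 with quantile normalization, -0.045 with cyclic loess and -0.042 with the value table. With 1 array left out H2ac8 ran from -0.088 to 0.21, H2bc3 from -0.11 to 1.19, H3c3 from -0.055 to 0.32, H3c4 from -0.020 to 0.30, H4c8 from -0.21 to 0.45 and H4c9 from -0.17 to 0.28. Without 1 array and with no turn of sign, H2ac4 ran from 0.87 to 2.26, H2ac22 from 0.56 to 1.17, H2aw from 0.29 to 0.73, H2bc1 from 0.043 to 0.80, H2bc14 from 0.21 to 0.90, H2bc18 from 0.40 to 1.43, H3c14 from 0.28 to 1.19, H3c11 from 0.30 to 0.93, H3c7 from 0.22 to 0.96 and H3c8 from 0.23 to 0.65. H4c14 was 0.51 with the mean of its probes. The cause of these shifts was not tested. Dim probes such as that of H3c15 limit single genes.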

Other observations

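The non-histone genes that lie among the core histone genes of cluster 1 on chromosome 13 were mostly not detected. RefSeq lists 199 of them, 46 had a probe and 8 passed the filter. Of these 8, 6 lay above 0, with a median of 0.07, against 53.2% of all features. Both haploid values lay above both diploid values for 2 of them, against 26% of all features. Vmn1r217, a vomeronasal receptor gene, differed by 0.42 ± 0.18 (limma adjusted p = 0.446), and Pom121l2 was detected on 0 of the 2 haploid arrays and on both diploid arrays. The order of arrays shared by 21 of the 36 core histone genes was shown by 0 of these 8 genes and by 10.7% of all features. With 8 genes, 0 cannot be set apart from that share.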
